A study of Arundo donax with 12 samples.

Results

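The abundant leaf-restricted unigenes of giant reed (Arundo donax) were 200 of the 126668 unigenes in the deposited table. A unigene is the longest transcript of a cluster in an assembly made without a reference genome. Each unigene was scaled to counts per 1000000 counts of its library (CPM). Unigenes below 1 CPM in all 6 root libraries were kept, which left 64360, and the 200 with the highest mean CPM over the 6 leaf libraries were taken as members. The measured values themselves thus chose the members, so that their high leaf level and low root level are descriptions and were not tested. The ranking used the mean over treated and control leaves together and did not use the difference between them.

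Leaves and roots of a grass share most housekeeping transcripts, while the leaf blade adds the machinery of photosynthesis. The proteins that harvest light, fix carbon and recycle photorespiratory carbon are largely encoded in the nucleus and are made from some of the most abundant messenger RNAs of a green leaf. Cadmium is a metal without a role in plant metabolism that binds protein thiols, displaces essential metal ions and is known to impair photosynthesis. The count table names unigenes by assembly cluster only, so the proteins behind the members were not identified here, no sequence of a member was at hand to print, and no defining leaf or root marker could be checked against the tissue labels.

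The plants were of a single ecotype, G10, each grown from 1 stem node in a pot of 8 kg of clay soil in the open air from May to July. The cadmium group (Cd) received cadmium nitrate at 4 mg/kg of soil. The control group (CK) received ammonium nitrate in its place, which the article gives as a means to balance nitrogen. Treated and control plants thus differed in the nitrogen salt as well as in cadmium. Wherever a cadmium difference is named below, these cannot be told apart. Fully expanded leaves (L) and roots (R) of 3 biological replicates per treatment gave 4 groups, CK_L, Cd_L, CK_R and Cd_R, and 12 libraries. Library totals ranged from 22157170 to 26033492 counts, and 1 CPM stood for 24.0 counts on average. Members had a count in each of the 6 leaf libraries without exception, and all 200 passed the filter on low counts in leaf.

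The members spanned a wide range of leaf levels. Their mean leaf CPM ran from 3670 at the first rank to 53.81 at rank 200, with a median of 134, and the unigene at the next rank, just outside, stood at 53.76. At 1000 CPM or more there were 17 members, which held 44.7% of the summed leaf CPM of all 200. A further 105 members lay between 100 and 1000 CPM and held 46.7%, and the remaining 78 held 8.57%. The 10 highest members alone held 31.9%.

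Together the members took 6.74%, 5.22% and 8.46% of all counts in CK_L replicates 1, 2 and 3, and 5.52%, 5.25% and 7.82% in Cd_L replicates 1, 2 and 3. The shares averaged 6.81% ± 1.62 in CK_L and 6.19% ± 1.41 in Cd_L (SD, n = 3), and both groups held low and high libraries that overlapped. Without CK_L replicate 3 the share of Cd_L was 0.214 percentage points above that of CK_L, against 0.613 points below it with all libraries (a difference of -0.613). These are bulk tissue samples, in which fewer cells of a type and less RNA per cell cannot be told apart.

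**Figure D1:**
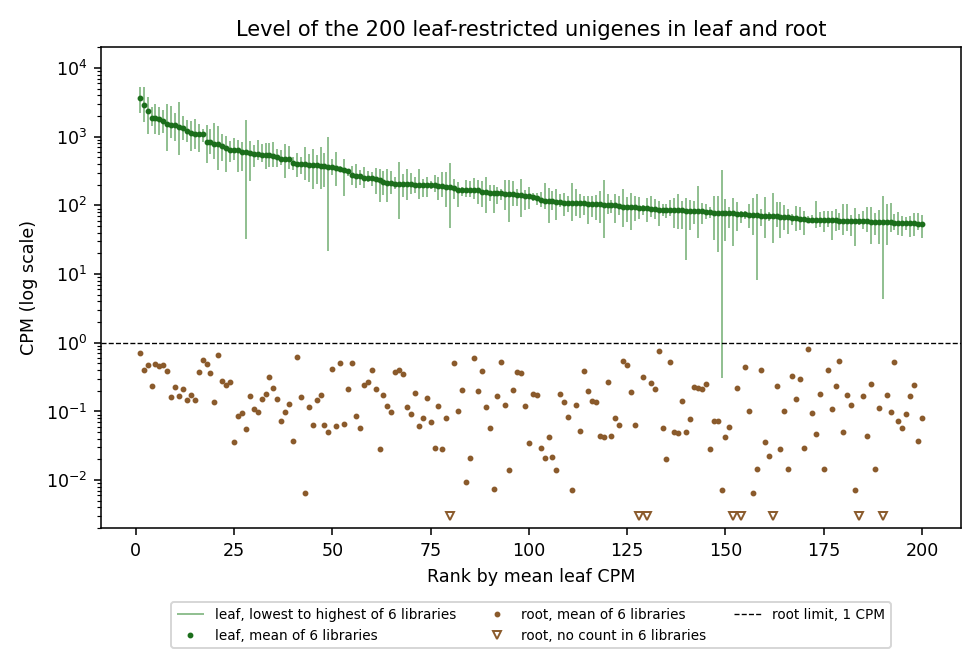
Level of the 200 members by rank. The y axis gives CPM on a log scale. Green points are means of the 6 leaf libraries, vertical lines run from the lowest to the highest leaf library, brown points are means of the 6 root libraries, open triangles mark the 8 members without a root count (placed at an arbitrary height), and the dashed line is the root limit of 1 CPM. Leaf means fall from 3670 to 53.81 CPM while every root mean stays under 1 CPM.

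In root the members left traces only, as the rule requires. Their summed level was 29.6, 46.6 and 35.7 CPM in CK_R replicates 1, 2 and 3 and 36.8, 35.5 and 33.5 CPM in Cd_R replicates 1, 2 and 3. The mean of these sums, 36.3 CPM, was 0.0558% of the leaf mean of 65011 CPM. Root counts were found in all 6 root libraries for 67 members and in none for 8. Those 8 had leaf means of 56.8 to 183 CPM, at least 2661-fold to 8580-fold above a floor of 3 counts over the 6 root libraries. This bound covers counting error only.

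The highest root value of any member was 0.990 CPM, in CK_R replicate 1, for Cluster-14691.38211. This unigene had 0.343 and 0.369 CPM in the other CK_R libraries and 0.394, 0.767 and 0.442 CPM in the Cd_R libraries, compared with 43.2 to 77.4 CPM in leaf. The next highest root value, 0.986 CPM in CK_R replicate 2, was shared by Cluster-14691.48457, the member that ranked first in leaf, and Cluster-14691.48056, named for this tie after its values were seen. Just outside the limit, the unigene of at least the same leaf level with the lowest root maximum reached 1.01 CPM, and 73 such unigenes had a root maximum from 1 to under 2 CPM. Among all 2833 unigenes at or above the leaf level of the last member, the 200 members were 7.06%, and the other 2633, called leaf-abundant unigenes with root expression here, had a median root maximum of 89.2 CPM.

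The same rule applied with the organs exchanged gives 200 root-restricted unigenes, whose mean root CPM ran from 38.1 to 2000 with a median of 57.7. They took 1.68% to 3.06% of the counts of a root library. These are values side by side, since both lists were chosen by level.

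Cluster IDs carry the number of the super-cluster of transcripts that share reads before the point. All 200 members belong to the same super-cluster, but so do all 2633 leaf-abundant unigenes with root expression and 97.0% of the 48194 unigenes tested in leaf, compared with 66.1% of all unigenes, so this is not particular to the members. The table holds expected counts, which are fractional where a read was divided among similar transcripts. Of the members' leaf values 35.1% were whole numbers, compared with 46.6% in the leaf-abundant unigenes with root expression and 74.0% in all unigenes tested. Values of single members may therefore include reads of near-identical copies.

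Members differed among themselves in how steady they were across the 6 leaf libraries. The coefficient of variation (SD over mean of CPM) had a median of 0.303 and a range from 0.0799 to 1.66, and it exceeded 0.5 in 26 members. The median was 0.303 over all unigenes tested and 0.222 over the leaf-abundant unigenes with root expression. Within groups of 3 it was 0.308 in CK_L and 0.264 in Cd_L.

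The steadiest member was Cluster-14691.47520, with 265, 321 and 331 CPM in CK_L and 331, 311 and 321 CPM in Cd_L. Second came Cluster-14691.47207, with 305, 328 and 380 CPM in CK_L and 358, 322 and 354 CPM in Cd_L. Both had overlapping groups, with log2 fold changes of -0.06 ± 0.26 and -0.11 ± 0.26 (SE) in edgeR, and the sign of both turned positive without CK_L replicate 3 (0.10 each) and with library totals alone (0.07 and 0.03).

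Much of the spread lay along the libraries rather than along the treatment. Of the 200 members, 103 had their highest leaf value in CK_L replicate 3, where 9.32% of all unigenes tested and 19.9% of the leaf-abundant unigenes with root expression were highest. Another 34 members were highest in Cd_L replicate 3, 25 in CK_L replicate 2, 17 in Cd_L replicate 2, 11 in Cd_L replicate 1 and 10 in CK_L replicate 1. The lowest value lay in CK_L replicate 2 for 77 members and in Cd_L replicate 2 for 55. Median departures from a member's own leaf mean on the log2 CPM scale were 0.10, -0.29 and 0.40 in CK_L replicates 1, 2 and 3 and -0.09, -0.20 and 0.15 in Cd_L replicates 1, 2 and 3. Over all unigenes tested the corresponding values were 0.12, -0.03 and -0.22 in CK_L and 0.12, 0.13 and -0.05 in Cd_L, so that by CPM CK_L replicate 3 was the highest library for the members and the lowest for the median unigene. On the TMM scale the median unigene no longer stood low there (-0.01), while the members stood 0.61 above their own mean.

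**Figure D2:**
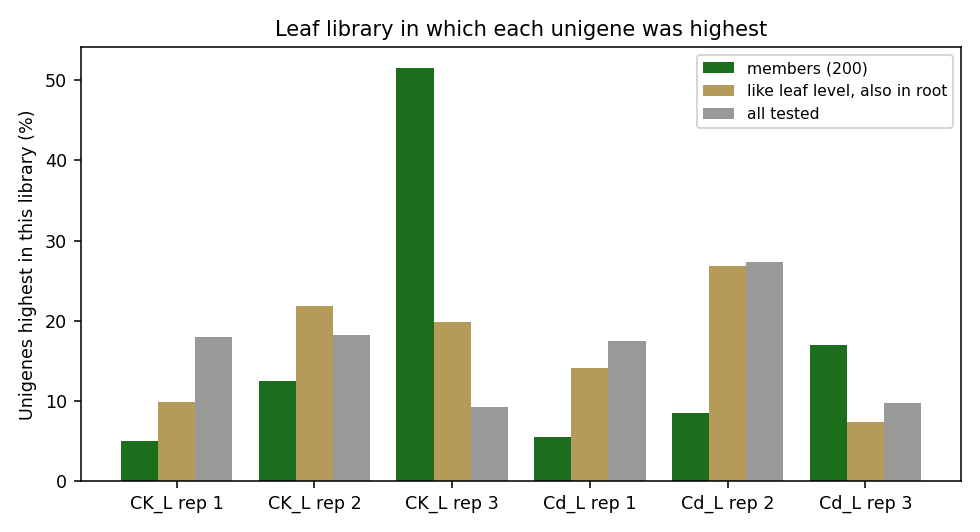
Share of unigenes, in percent, whose highest leaf CPM lay in each of the 6 leaf libraries. Green bars are the 200 members, tan bars the 2633 leaf-abundant unigenes with root expression, and grey bars all 48194 unigenes tested. The green bar of CK_L replicate 3 stands at 51.5%.

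In 82 members (41.0%) replicate 3 was the highest library of both leaf groups, compared with 3.76% of all unigenes tested and 7.41% of the leaf-abundant unigenes with root expression. Pots stood in a randomized block layout according to the article. The labels do not say whether a replicate number marks a block, so the part of the layout in this pattern was not tested. Values at least 2-fold above both other Cd_L libraries were found in Cd_L replicate 3 for 18 members (9.0%), compared with 1.25% of all unigenes tested.

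Within CK_L a large group and a small one ran in opposite directions. In 118 members CK_L replicate 3 was the highest and replicate 2 the lowest control leaf, an order found in 13.2% of all unigenes tested and 23.2% of the leaf-abundant unigenes with root expression. The reverse order held in 25 members, compared with 28.7% and 29.9%. A departure of at least 2-fold from both other CK_L libraries was found in replicate 2 for 20 members below (10%) and 8 above (4.0%). The shares were 9.18% and 4.71% of all unigenes tested, and 4.52% and 5.96% of the leaf-abundant unigenes with root expression.

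**Figure D3:**
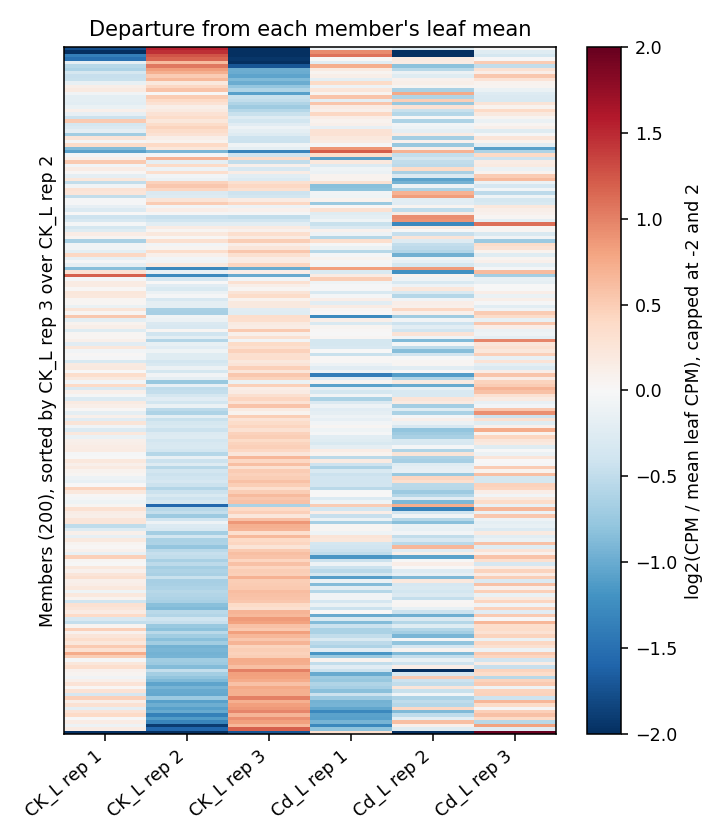
Departure of each member from its own mean over the 6 leaf libraries, as log2 of CPM over mean leaf CPM, capped at -2 and 2. Each line is 1 of the 200 members, sorted by the ratio of CK_L replicate 3 to CK_L replicate 2, and columns are libraries. Red is above and blue below the member's mean, and most lines are red in CK_L replicate 3 and blue in CK_L replicate 2, with the opposite in a small group at the top.

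The members with the most uneven leaf values belonged to that small group or stood high in a single library. Cluster-14691.48155 had 174, 1728 and 32.2 CPM in CK_L and 552, 490 and 590 CPM in Cd_L, so that CK_L replicate 2 held 48.5% of its summed leaf CPM while the treated leaves were close to each other. Its log2 fold change was -0.33 ± 1.11 (SE) in edgeR with all libraries and 2.39 without CK_L replicate 2. Cluster-14691.47390 had 81.5, 991 and 21.8 CPM in CK_L and 693, 70.0 and 303 CPM in Cd_L, with 45.9% of its leaf CPM in CK_L replicate 2. Its log2 fold change moved from -0.14 ± 1.27 (SE) to 2.75 without that library and to 0.35 without Cd_L replicate 2. The sign of the cadmium difference in both members thus turned with single libraries left out.

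The most uneven member of all 200 was Cluster-14691.25994, with 0.461, 0.311 and 23.6 CPM in CK_L and 97.0, 13.4 and 329 CPM in Cd_L. Cd_L replicate 3 held 70.9% of its leaf CPM, and it was the 1 member with a leaf value under 1 CPM. Its log2 fold change of 3.95 ± 1.77 (SE) was the most positive among the members, but the groups overlapped, and edgeR's quasi-likelihood test gave an unadjusted p of 0.0567 and a Benjamini-Hochberg adjusted p of 1.000. Over the alternatives its log2 fold change ran from 2.43 to 8.60.

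Whether the members changed with cadmium in leaf was asked in Cd_L vs CK_L. The data did not show a change in any single member by the main test. On balance the members stood slightly lower in treated leaves, a shift absent without CK_L replicate 3 and larger without Cd_L replicate 3. DEGs were defined by edgeR's quasi-likelihood test, fitted to all 48194 unigenes past the filter, as those whose absolute log2 fold change reached 1 and whose p, after Benjamini-Hochberg adjustment, did not exceed 0.05. None of the 200 members was a DEG, as were none of all unigenes tested (0%). The unadjusted p was under 0.05 for 11 members (5.50%), 2 higher and 9 lower under cadmium. The share was 4.25% of all unigenes tested and 4.60% of the leaf-abundant unigenes with root expression. DESeq2 with default settings, fitted without the filter on low counts, called 1 member, Cluster-14691.45676, where it called 73 of 94329 unigenes (0.0774%). It gave an unadjusted p under 0.05 for 15 members (7.5%, against 2.69% of those unigenes). The 94329 include unigenes of low count that the filter removes, so the DESeq2 shares do not compare unigenes of like level.

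The log2 fold change was below 0 in 156 members and above 0 in 44, so 78.0% were lower under cadmium, compared with 51.5% of all unigenes tested and 61.5% of the leaf-abundant unigenes with root expression. Its median was -0.28 in the members, with quartiles of -0.45 and -0.03, against -0.01 in all unigenes tested and -0.08 in the leaf-abundant unigenes with root expression. Scaling by library totals without TMM moved the median of all unigenes to 0.10 and that of the members to -0.15, with 135 members lower and 65 higher. Relative to all unigenes the members' median was thus 0.27 lower with TMM and 0.25 lower without it (differences of -0.27 and -0.25).

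This balance did not hold without CK_L replicate 3. With that library left out the median of the members was 0.03, 109 members lay above 0 and 91 below, and the medians of all unigenes tested and of the leaf-abundant unigenes with root expression were 0.01 and -0.00. Leaving out Cd_L replicate 3 instead widened the shift to -0.42, with 173 members lower and 27 higher, and 25 members (12.5%) had an unadjusted p under 0.05 in edgeR, against 3.66% of all unigenes in that fit. Without CK_L replicate 2 it was -0.43, and 25 members again had such a p, against 8.69% of all unigenes. In the fit without CK_L replicate 3 only 7 members (3.5%) had such a p, against 3.31%. The share of members was 5.5% without CK_L replicate 1 and 3.5% without Cd_L replicate 1 or Cd_L replicate 2, against 3.89%, 3.41% and 3.56% of all unigenes.

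**Figure D4:**
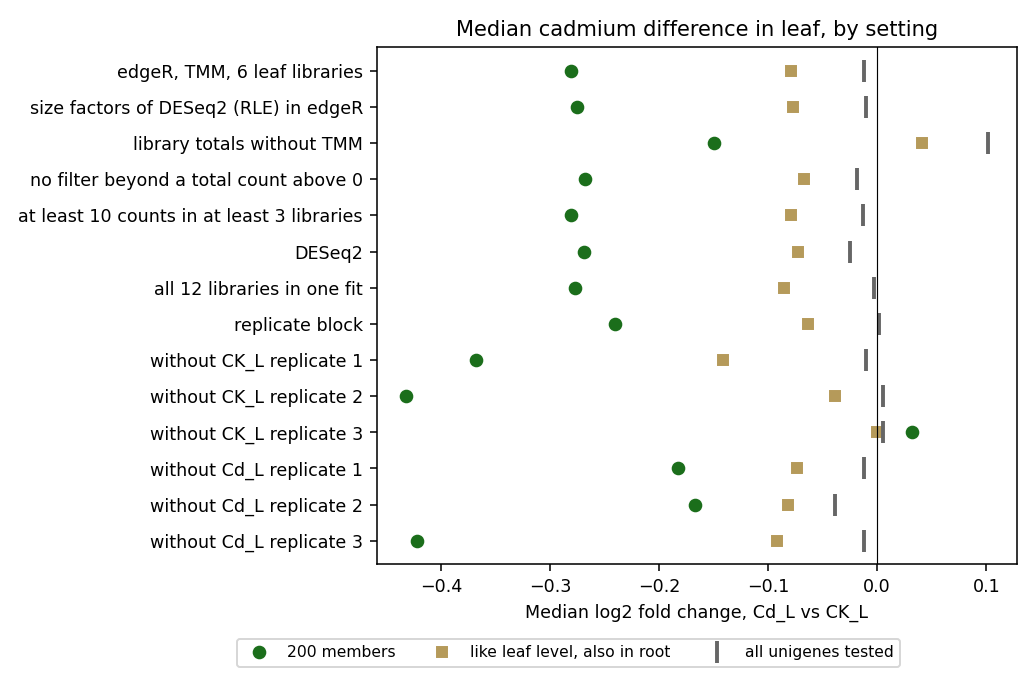
Median log2 fold change of Cd_L vs CK_L (x axis) under each setting of the fit (y axis). Green circles are the 200 members, tan squares the leaf-abundant unigenes with root expression, and grey bars all unigenes tested in that fit. The circles lie between -0.43 and -0.15 except without CK_L replicate 3, where the median is 0.03.

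Medians were close to each other across levels. The median log2 fold change was -0.26 in the 17 members at 1000 CPM or more (13 lower, 4 higher), -0.28 in the 105 members between 100 and 1000 CPM (84 lower, 21 higher) and -0.28 in the 78 members below (59 lower, 19 higher). The next 200 leaf-restricted unigenes, at ranks just below the members, had a median of -0.25. The difference between members and other unigenes was not tested, as the members were chosen together and share libraries.

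Groups that did not overlap in CPM were found in 18 members. All 3 Cd_L values lay above all 3 CK_L values in 8 members (4.0%), against 6.91% of all unigenes tested, and below in 10 members (5.0%), against 2.55%. In the leaf-abundant unigenes with root expression 6.19% lay above and 3.68% below, and in the next 200 leaf-restricted unigenes 6.5% and 5.0%. On the TMM scale 3 members (1.5%) lay above, against 5.08% of all unigenes tested, and 12 members (6.0%) below, against 4.36%. Without CK_L replicate 2, a setting with fewer values to overlap, 19 members (9.5%) lay above and 43 (21.5%) below, against 15.5% and 7.99% of all unigenes tested. Without Cd_L replicate 3 there were 11 members (5.5%) above and 30 (15%) below, against 16.2% and 4.47%. Leaving out CK_L replicate 3 gave 15 members (7.5%) above and 13 (6.5%) below, against 8.52% and 8.23%, so the larger share below was not seen there. With CK_L replicate 1, Cd_L replicate 1 or Cd_L replicate 2 left out, 8.0%, 7.0% and 6.0% of members lay below, against 3.96%, 5.95% and 5.40%.

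Among the members with groups apart, Cluster-14691.45769 and Cluster-14691.45676 had the largest positive differences. Cluster-14691.45676 had 435, 323 and 390 CPM in CK_L and 1386, 1416 and 760 CPM in Cd_L. Every treated leaf lay above every control leaf, and its means were 382 ± 56.5 CPM and 1187 ± 370 CPM (SD, n = 3). The log2 fold change was 1.5 ± 0.33 (SE), with an unadjusted p of 0.00189 and a Benjamini-Hochberg adjusted p of 1.000 in edgeR, against an adjusted p of 0.000997 in DESeq2. Across settings the adjusted p of edgeR or DESeq2 ran from 0.000997 to 1 and the log2 fold change from 1.37 to 1.70, and only DESeq2 passed the limits. In root the unigene had 0.394 to 0.902 CPM. It is the only member among the 388 unigenes of the article's supplementary tables. There it stands on the list of leaf DEGs, drawn from these same libraries, without any functional term. From its list of Cd_R vs Cd_L the article removed the DEGs of CK_R vs CK_L. Unigenes restricted to an organ can be absent from that list by construction.

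Cluster-14691.45769 had 648, 724 and 549 CPM in CK_L and 3176, 2217 and 888 CPM in Cd_L. The 3 control leaves were close to each other, while the treated leaves spanned a wide range with replicate 3 nearest to the controls. Its log2 fold change was 1.57 ± 0.46 (SE), with an unadjusted p of 0.00947 and an adjusted p of 1.000 in edgeR and of 0.0591 in DESeq2 (0.0591 to 1 across settings). In both unigenes Cd_L replicate 3 was the lowest treated leaf, whereas for 109 members it was the highest one.

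On the negative side stood Cluster-14691.45044, with 100.03, 151 and 123 CPM in CK_L and 44.2, 72.5 and 70.5 CPM in Cd_L. Its log2 fold change was -1.12 ± 0.30 (SE), with an unadjusted p of 0.00615 and an adjusted p of 1.000 in edgeR and of 0.214 in DESeq2 (0.214 to 1 across settings). Cluster-14691.48889, second in leaf level, had 3452, 2695 and 5299 CPM in CK_L and 1831, 1618 and 2524 CPM in Cd_L. The lowest control leaf lay just above the highest treated leaf, the log2 fold change was -1.08 ± 0.47 (SE), and the unadjusted p of 0.0507 in edgeR became an adjusted p of 1.000. Without CK_L replicate 3 and under the other settings the log2 fold change of this unigene lay between -1.35 and -0.63. Also with a log2 fold change of -1 or less was Cluster-14691.48152 (-1.15 ± 0.48, SE), named after its values were seen, whose groups overlapped with 1098, 475 and 1580 CPM in CK_L and 475, 512 and 589 CPM in Cd_L. In all, 3 members had a log2 fold change of -1 or less and 3 of 1 or more, against 2.90% and 1.66% of all unigenes tested.

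The other members of the top 5 in leaf level showed no separation of the groups. Cluster-14691.48457, the highest, had 4000, 2219 and 4304 CPM in CK_L and 2665, 3478 and 5355 CPM in Cd_L, a log2 fold change of 0.02 ± 0.49 (SE) whose sign turned without CK_L replicate 2 (-0.22) and without Cd_L replicate 3 (-0.38). Cluster-14691.48876 had 2947, 1739 and 3835 CPM in CK_L and 1101, 1266 and 3318 CPM in Cd_L, with a log2 fold change of -0.69 ± 0.59 (SE) that was -0.27 without CK_L replicate 3 and -1.46 without Cd_L replicate 3. Replicate 3 was the highest library of each group in both unigenes, and the treated range of each overlapped with the control range.

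Cluster-14691.48064 had 1991, 1550 and 2138 CPM in CK_L and 1529, 1419 and 2742 CPM in Cd_L, with a log2 fold change of -0.10 ± 0.42 (SE). Cluster-14691.48555 had 2206, 1170 and 3043 CPM in CK_L and 1320, 1094 and 2511 CPM in Cd_L, with a log2 fold change of -0.51 ± 0.54 (SE) that was -0.01 without CK_L replicate 3 and -1.03 without Cd_L replicate 3. Again replicate 3 was the highest of each group, and the edgeR adjusted p of all these unigenes was 1.000. The lowest leaf count among the 5 highest members was 26286, in Cluster-14691.48876.

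**Figure D5:**
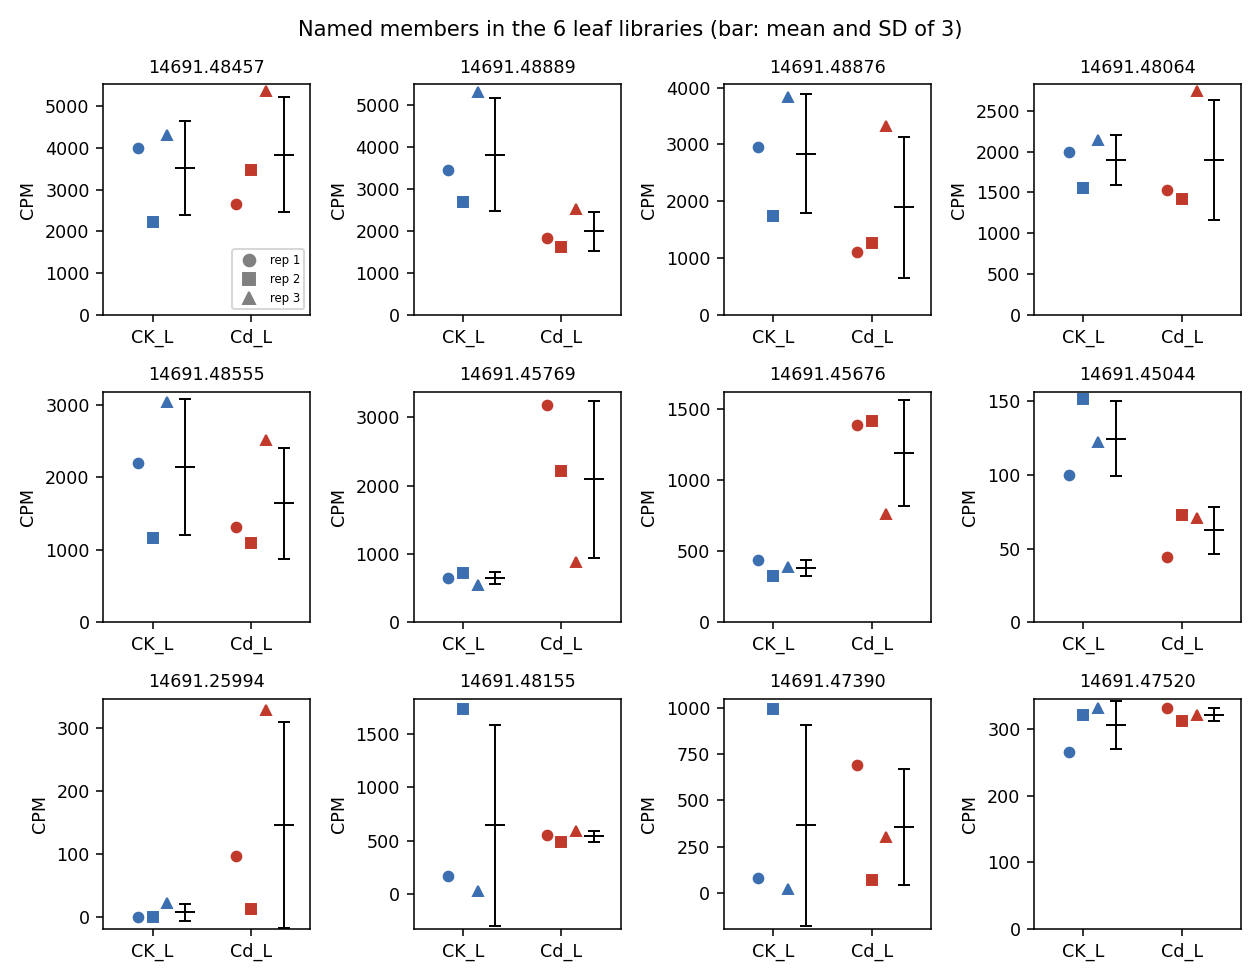
CPM of 12 named members in the CK_L (blue) and Cd_L (red) libraries. Symbols mark replicate 1 (circle), 2 (square) and 3 (triangle), and the black bar is the mean and SD of 3 libraries. The groups lie apart in Cluster-14691.48889, Cluster-14691.45769, Cluster-14691.45676 and Cluster-14691.45044 and overlap in the other 8.

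The last member inside the list, Cluster-14691.45303, had 62.0, 40.1 and 72.0 CPM in CK_L and 61.1, 34.0 and 53.8 CPM in Cd_L, with a log2 fold change of -0.36 ± 0.33 (SE). The unigene just outside, Cluster-14691.34540, had 47.2, 89.0 and 34.9 CPM in CK_L and 46.7, 49.4 and 55.3 CPM in Cd_L. The ranges of both unigenes overlapped, so their order at the edge of the list lay within the spread between libraries.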

How the data were processed

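Poly-A libraries of the 12 samples were sequenced as paired-end reads by a company. The authors' processing assembled the clean reads with Trinity, clustered the transcripts with Corset and counted the reads of each library with RSEM. The deposited table holds the resulting expected counts, not normalized and not filtered; 88.6% of the values were whole, and they were rounded before testing. No reference genome was used. Columns were assigned by name. Levels are CPM on the column sum.

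Members, lists and tests were chosen with earlier results of these data known. Named unigenes followed a rule on level, difference, evenness, root level and listing in the article. Cd_L vs CK_L was tested on the whole table with edgeR 4.0.16 in R 4.3.3 (TMM, filterByExpr, glmQLFTest, Benjamini-Hochberg over all 48194 unigenes). The SE is the absolute log2 fold change over the square root of F. DESeq2 1.42.0 (the authors used another version of DESeq2), other scalings, filters, member rules and left-out libraries were alternatives. Only the edgeR test with its main settings was run on simulated data, and the alternatives were not. Replicates are separate pots, and p-values measure the spread between them. Enrichment was not computed, since the members carry no names.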

Additional observations from a re-analysis of the deposited data

How the results depend on the processing

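The effect of sequencing depth and of the number of plants was not tested. The number of unigenes called, 0 by edgeR, was 2 without a filter on low counts and 73 by DESeq2, and the number of members called was 0 in all edgeR settings and 1 by DESeq2. For Cluster-14691.45676 DESeq2 gave a log2 fold change of 1.5. With 1 library left out, the median log2 fold change of the members ran from -0.43 to 0.0323 and members above 0 from 27 to 109. Members with groups apart then ranged from 10 to 19 above (5.0% to 9.5%), against 8.52% to 17.1% of all unigenes tested. Below there were 12 to 43 members (6.0% to 21.5%), against 3.96% to 8.23%. The difference in share ranged from -1.42 to 0.214 percentage points. On the TMM scale 3 members (1.5%) lay above and 12 (6.0%) below, against 5.08% and 4.36% of all unigenes tested. Members without any root count, of which 8 were shared, gave 69 above 0 and a difference in share of 0.0204 points. A root limit of 0.5 CPM gave 6 of 200 members with groups apart below, against 2.55% of all unigenes tested. With 100 and 400 members, which changes the counts by construction, 20 and 102 were above 0, 2 and 21 had groups apart above, and 2 and 20 below. Of all unigenes tested 48.5% were above 0, and 6.91% and 2.55% had groups apart above and below.

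The signs of some small log2 fold changes turned. With library totals they were 0.00265 for Cluster-14691.48064, 0.0721 for Cluster-14691.47520 and 0.0286 for Cluster-14691.47207. With 1 library left out, values ran from -0.38 to 0.32 for Cluster-14691.48457, from -0.54 to 0.11 for Cluster-14691.48064, from -0.88 to 2.39 for Cluster-14691.48155, from -0.99 to 2.75 for Cluster-14691.47390, from -0.22 to 0.10 for Cluster-14691.47520, from -0.25 to 0.10 for Cluster-14691.47207 and from -0.42 to 0.0866 for Cluster-14691.38211. The cause was not tested.

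Replicate numbers were not taken to pair the leaves, as the labels do not tie them to the blocks of pots. Across all unigenes tested, the deviations of same-numbered libraries correlated at -0.14, -0.45 and -0.14. Those of differently numbered libraries correlated at -0.29 to 0.35. The members were a small part of these unigenes. Replicate 3 was the highest library of both leaf groups in 82 members (41.0%), against 3.76% of all unigenes tested. With the replicate number as a block the median of the members was -0.24, 50 members were above 0, edgeR called 0, and the log2 fold change was 1.37 for Cluster-14691.48155 and 1.81 for Cluster-14691.47390.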
